A study of Bos taurus with 15 samples.

Results

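The 36 genes described here build the mitotic spindle, attach chromosomes to it and pull them apart. They were named as a list, and a gene was matched to an array probe when the scanner file gave its symbol as the gene name (CDC2 for CDK1) or gave it in brackets in the description. By that rule 32 of the 36 genes had a probe, with 35 of the 21475 bovine probes between them. BIRC5, PRC1 and UBE2C had 2 probes each, and the brightest probe stands for the gene. MKI67, NDC80, NUF2 and NCAPG had none by the rule. Of the 32 genes, 31 passed the filter, a signal clearly over background on 7 or more of 15 arrays, and were tested, and KIF11 was not. All 31 were well above background on 15 of 15 arrays.

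Transcripts were measured in thymus that was collected at slaughter from Holstein cows. The labels give 8 animals as treated with prednisolone, a synthetic glucocorticoid, at 30 mg per head and day by mouth for 35 days, and 7 animals as untreated controls. The protocol field repeats the drug for the controls too, so the groups rest on the treatment field. Each animal's RNA had its own 1-colour bovine array, so a replicate is an animal. A value below is the log2 processed signal minus the 75th percentile of its array, so 0 is that percentile, and a difference is prednisolone minus control. The labels give no age for either group.

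Cells enter mitosis when cyclin B activates the kinase CDK1. Microtubules then grow into a spindle, motor proteins move along them, and each chromosome is held at its centromere by a protein assembly called the kinetochore. The spindle checkpoint delays separation until every kinetochore is attached, after which the anaphase-promoting complex marks cyclin B and securin for destruction. Many of these transcripts are made late in the cell cycle, so they are commonly read as marks of dividing cells. In the thymus the dividing cells are mostly immature thymocytes of the outer cortex. Glucocorticoids are known to kill thymocytes.

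The 15 arrays lay on 4 slides, with the groups spread unequally over them. Slide 1 held prednisolone animal 6 with controls 1, 2 and 5. Slide 2 held prednisolone animals 3, 5 and 8 with control 3, and slide 3 held prednisolone animal 1 with controls 4, 6 and 7. Slide 4 held prednisolone animals 2, 4 and 7 and no control. On slide 4 between 76.4% and 77.7% of bovine spots were well above background, against 67.1% to 76.0% on the other slides. All 13 measured thymocyte markers and all 9 measured markers of thymic epithelium were well above background on all 15 arrays. Transcripts of other tissues were also present. Of 7 genes of sperm formation, 6 or 7 were above background in prednisolone animal 8 and in controls 1, 4 and 6, against 2 to 4 in the other 11 animals. PRM1, the sperm protamine, had a value of 1.57 in prednisolone animal 8, and of 3.21, 4.37 and 1.21 in controls 1, 4 and 6. All 5 liver genes were above background in prednisolone animals 3 and 4, where ALB, serum albumin, had values of -1.01 and 0.96, against -6.81 or lower in the other 13. These 6 animals go against a label of cow thymus alone. The gene lists and the rule that picked them were chosen after seeing the data, and the main results below are also given without them. In whole tissue, fewer cells of a type and less RNA per cell cannot be told apart.

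No mitotic gene differed between prednisolone and control cows by the test. Of the 31 genes 0 passed (limma, Benjamini-Hochberg adjusted p under 0.05 over 16069 probes), as did 0% of all probes. Most estimates were small and below 0: 23 were lower and 8 higher in prednisolone cows, where 50.1% of all probes were lower. The median log2 difference was -0.066 over the 31 genes, with a range of -0.35 to 0.62, and -0.00044 over all probes. After normexp background correction, which shifted the median of all probes to -0.21, the median of the 31 genes was -0.029 and so lay 0.18 above that of all probes. KIF2C alone had an unadjusted p under 0.05, 1 of 31 genes or 3.23%, against 7.08% of all probes. The highest and lowest animals of the groups overlapped for all 31 genes, where 0.118% of all probes did not overlap.

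The intervals show how large a difference these arrays leave possible under the main processing. The 95% interval of the difference lay within 1.5-fold in either direction for 27 of the 31 genes, the exceptions being MAD2L1, TACC3, TPX2 and BUB1B. It lay within 2-fold for 30, the exception being TACC3. In the slide-block fit it lay within 1.5-fold for 26 genes, the exceptions being MAD2L1, BUB1B, TACC3, CKS2 and RACGAP1, and within 2-fold for 31 of 31. Some estimates changed in size with the processing. With normexp background correction those of TPX2, BUB1B and HMMR were larger, at -0.81, -0.79 and -0.56. Those of KIF2C, MAD2L1 and TACC3 were smaller, at -0.20, -0.24 and 0.22. The half-width of the interval had a median of 0.22 on the log2 scale and ran from 0.16 to 0.85. The SD between animals of a group exceeded the SD between the 2 spots of a probe for 31 of 31 genes, with medians of 0.19 and 0.098.

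**Figure D1:**
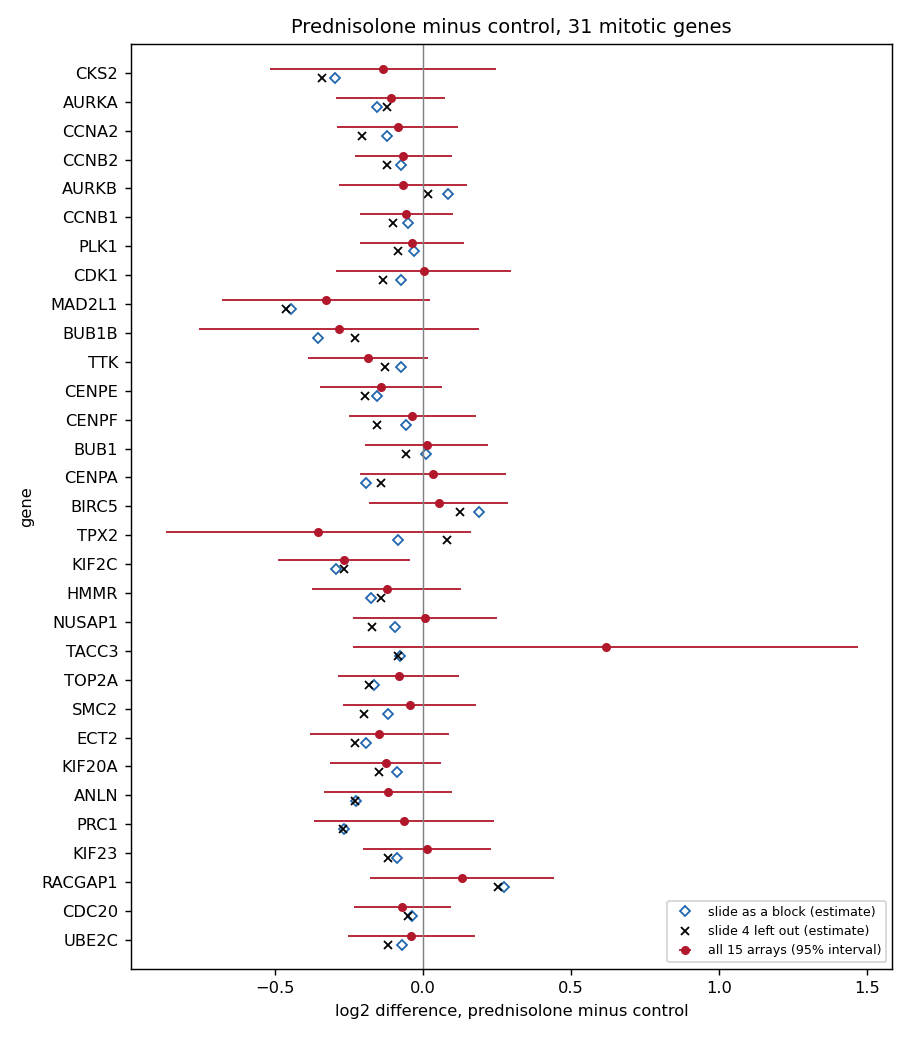
Log2 difference, prednisolone minus control, of the 31 tested genes, grouped by role from cyclins and kinases at the top to degradation at the bottom. Filled circles with bars are estimates from all 15 arrays with 95% intervals, open diamonds are estimates with slide as a block and crosses those without slide 4. 23 of the 31 circles and 27 of the 31 crosses lie left of 0, and TACC3 has the widest bar.

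More genes lay below 0 once slide was allowed for. In a fit with slide as a fixed block, 27 of 31 genes were lower in prednisolone cows, where 49.9% of all probes were, and the median difference was -0.086. KIF2C and BUB1B had an unadjusted p under 0.05, or 6.45% of the genes against 9.57% of all probes. Without the 3 arrays of slide 4, 27 of 31 were lower, where 44.6% of all probes were, with a median of -0.14 against 0.021 for all probes. In that fit 6 genes had an unadjusted p under 0.05, all lower, or 19.4%, against 9.12% of all probes in either direction and 2.62% lower: MAD2L1, CKS2, PRC1, ANLN, CCNA2 and SMC2. None of them passed, and the smallest limma adjusted p was 0.425, for MAD2L1. Slide 4 held no control, so its arrays do not inform the treatment estimate of the slide-block fit either. Both fits take that estimate from the same arrays and are not separate checks.

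Within slides the same genes did not all lie on 1 side. On slide 1, with a single prednisolone animal against 3 controls, 14 of 31 were lower (50.4% of all probes) and the median difference was 0.013. On slide 2, with 3 prednisolone animals against a single control, 25 were lower (44.7% of all probes) and the median was -0.23. On slide 3, with a single prednisolone animal against 3 controls, 25 were lower (52.5% of all probes) and the median was -0.14. Without the 6 animals with testis or liver transcripts, 27 of 31 were lower, where 54.2% of all probes were, with a median of -0.10. TTK and KIF2C then had an unadjusted p under 0.05, or 6.45% against 2.60% of all probes, and 0 passed (limma).

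The cyclins and kinases that drive entry into mitosis were nearly flat. Of 8 tested genes 7 were lower in prednisolone cows and 1 was higher, with a median log2 difference of -0.066 and a range of -0.13 to 0.0026. CDK1, the kinase that starts mitosis, had 0.0026 ± 0.14 (SE), and CCNB1 and CCNB2, which encode its B-type cyclins, had -0.057 ± 0.074 and -0.066 ± 0.077. CCNA2, the cyclin of S phase and early mitosis, had -0.085 ± 0.096. PLK1, a kinase with roles from centrosome maturation to cytokinesis, had -0.037 ± 0.082, and AURKB, the kinase that corrects wrong attachments, had -0.066 ± 0.10.

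AURKA, the kinase of centrosomes and spindle poles, had values of 0.20, 0.38 and 0.63 as the lowest, median and highest prednisolone animal, against 0.15, 0.56 and 0.70 in controls. The lowest and the highest of all 15 animals were both controls. The difference was -0.11 ± 0.087 (limma adjusted p = 0.832). CKS2, a small subunit that binds CDK1, had values of 2.36, 2.53 and 3.67 in prednisolone animals, against 2.42, 2.74 and 3.26 in controls. Prednisolone animal 7 stood alone at the top, with the next prednisolone animal at 2.69. The difference was -0.13 ± 0.18 with all arrays (limma adjusted p = 0.914), and -0.34 ± 0.12 without slide 4 (limma adjusted p = 0.452). Its sign turned with normexp background correction, to 0.053.

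Genes of the spindle checkpoint and the kinetochore lay on both sides of 0. Of 8 tested genes 5 were lower and 3 higher, with a median of -0.088 and a range of -0.33 to 0.053. MAD2L1 encodes a checkpoint protein that keeps CDC20 from the anaphase-promoting complex. Its values were -0.012, 0.16 and 0.90 in prednisolone animals, against 0.27, 0.70 and 1.08 in controls. Of the prednisolone animals 5 lay below the lowest control, and the other 3 lay among the controls, 2 of them on slide 4. The difference was -0.33 ± 0.16 (95% interval -0.68 to 0.025, limma adjusted p = 0.707). Within slides 1, 2 and 3 it was -0.0018, -0.64 and -0.69.

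BUB1B, which encodes the checkpoint protein BUBR1, had the widest spread of the checkpoint genes. Its values were -5.57, -4.89 and -4.36 in prednisolone animals, against -5.43, -4.57 and -4.09 in controls. The 4 controls of slides 1 and 2 lay at -4.57 or higher, and the 3 controls of slide 3 at -5.07 or lower. The difference was -0.28 ± 0.22 (limma adjusted p = 0.829), and -0.35 ± 0.14 in the slide-block fit (limma adjusted p = 0.467). TTK, the kinase MPS1 that starts checkpoint signalling, had values of -1.12, -0.99 and -0.76 in prednisolone animals, against -1.22, -0.76 and -0.59 in controls. The difference was -0.18 ± 0.095 (limma adjusted p = 0.718), and -0.074 ± 0.12 with slide as a block. CENPE, a kinesin that moves chromosomes from the kinetochore, had values of -0.27, -0.15 and 0.19 in prednisolone animals, against -0.26, 0.081 and 0.20 in controls, with a difference of -0.14 ± 0.096 (limma adjusted p = 0.796). The highest and lowest animals of both groups were close for CENPE.

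The other 4 genes of this group moved little. BUB1, a checkpoint kinase, had a difference of 0.013 ± 0.098. CENPF, a large protein of the outer kinetochore, had -0.035 ± 0.10. CENPA, the histone H3 variant that marks centromeres, had 0.035 ± 0.12 with all arrays and -0.19 ± 0.10 with slide as a block. BIRC5 encodes survivin, which brings Aurora B to centromeres, and its brighter probe gave 0.053 ± 0.11.

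**Figure D2:**
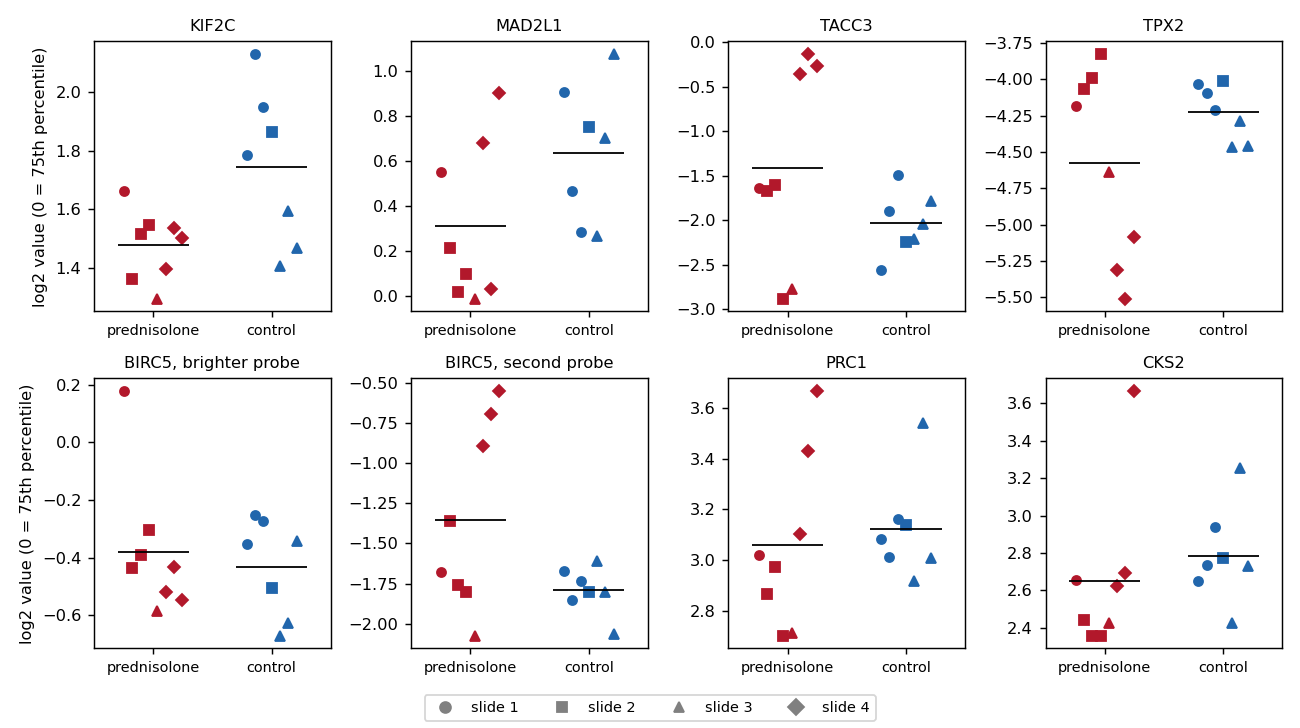
Log2 value of 7 genes in every animal, as points for prednisolone (left, red) and control (right, blue) with a line at the group mean and with the slide as symbol, where 0 is the 75th percentile of the array. The 3 slide 4 animals stand above all others for TACC3 and the second BIRC5 probe and below all others for TPX2, and prednisolone animal 7 and control 6 lead their groups for PRC1 and CKS2.

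Among motors and spindle proteins KIF2C came nearest to the threshold. KIF2C encodes MCAK, a kinesin that takes microtubules apart at the kinetochore. Its values were 1.29, 1.51 and 1.66 in prednisolone animals, against 1.41, 1.79 and 2.13 in controls. The 4 controls of slides 1 and 2 lay above all 8 prednisolone animals, and the 3 controls of slide 3 lay within their range. The difference was -0.27 ± 0.11 (95% interval -0.49 to -0.042, limma adjusted p = 0.655). Within slides 1, 2 and 3 it was -0.29, -0.39 and -0.20, and the fit with the slide block gave -0.29 ± 0.085 (limma adjusted p = 0.306). Without the 6 animals with testis or liver transcripts it was -0.38 ± 0.14 (limma adjusted p = 0.991).

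TACC3, which with clathrin and CKAP5 binds spindle microtubules together, had the largest estimate of the 31 genes. Its values were -2.89, -1.62 and -0.13 in prednisolone animals, against -2.56, -2.04 and -1.50 in controls. The 3 animals of slide 4 lay between -0.36 and -0.13 and all 12 others at -1.50 or lower. The difference was 0.62 ± 0.40 with all arrays (limma adjusted p = 0.781). The slide-block fit gave -0.076 ± 0.29, and the 12 arrays of slides 1 to 3 gave -0.083 ± 0.26. Both estimates rest on those 12 arrays. The 2 spots of the TACC3 probe also differed most of the 31 genes, with an SD of 0.68. A dimmer TACC3 probe outside the rule was above background on 0 of 8 prednisolone arrays and on 1 of 7 control arrays, so it gives no level to set beside these.

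TPX2, which carries Aurora A to the spindle, showed the reverse order on slide 4. Its values were -5.51, -4.41 and -3.82 in prednisolone animals, against -4.46, -4.21 and -4.01 in controls. The 3 slide 4 animals lay at -5.09 or lower and all 12 others at -4.64 or higher. The difference was -0.35 ± 0.24 with all arrays (limma adjusted p = 0.796), -0.084 ± 0.098 in the slide-block fit and 0.083 ± 0.14 when slide 4 was left out. HMMR, a microtubule-binding protein of spindle poles, had values of -3.46, -3.22 and -2.98 in prednisolone animals, against -3.60, -3.05 and -2.86 in controls, with a difference of -0.12 ± 0.12 (limma adjusted p = 0.863). NUSAP1, which bundles microtubules near chromosomes, had 0.0073 ± 0.11.

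KIF11 encodes Eg5, the kinesin that pushes spindle poles apart. It was well above background in 3 of 8 prednisolone animals, which were the 3 of slide 4, and in 0 of 7 controls. Its mean value was -7.02 in prednisolone animals and -7.20 in controls. No fold is given, since both means lay near the background.

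Both tested genes of chromosome condensation were lower in prednisolone cows, without passing. TOP2A, the topoisomerase that untangles DNA strands, had -0.082 ± 0.095. SMC2, a core subunit of condensin, had -0.045 ± 0.11 with all arrays and -0.20 ± 0.088 without slide 4 (limma adjusted p = 0.533).

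Of 6 genes of cytokinesis, the physical division of the cell, 4 were lower and 2 higher, with a median of -0.091. ANLN encodes anillin, a scaffold of the contractile ring. Its values were -0.90, -0.63 and -0.24 in prednisolone animals, against -0.89, -0.49 and -0.35 in controls. The difference was -0.12 ± 0.10 (limma adjusted p = 0.845), and -0.23 ± 0.096 without slide 4 (limma adjusted p = 0.507). ECT2, the exchange factor that switches on RhoA at the division plane, had values of -0.26, 0.041 and 0.40 in prednisolone animals, against -0.13, 0.23 and 0.42 in controls. The difference was -0.15 ± 0.11 (limma adjusted p = 0.815). KIF20A, a kinesin of the central spindle, had values of 0.14, 0.25 and 0.64 in prednisolone animals, against 0.18, 0.44 and 0.63 in controls. The difference was -0.13 ± 0.087 (limma adjusted p = 0.801). For these 3 genes the groups covered nearly the same range, and the median prednisolone animal lay below the median control.

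PRC1, which crosslinks the microtubules of the central spindle, had -0.063 ± 0.14 with all arrays and -0.27 ± 0.11 without slide 4 (limma adjusted p = 0.489). Its highest values, 3.67 in prednisolone animal 7 and 3.54 in control 6, came from the same 2 animals as those of CKS2. KIF23 and RACGAP1, the 2 parts of the centralspindlin complex, had 0.014 ± 0.10 and 0.13 ± 0.15. RACGAP1 was the member with the largest estimate above 0 after TACC3.

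Both genes of degradation at mitotic exit were nearly flat. CDC20, which activates the anaphase-promoting complex, had -0.070 ± 0.077, and UBE2C, the ubiquitin-conjugating enzyme of that complex, had -0.039 ± 0.10.

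**Figure D3:**
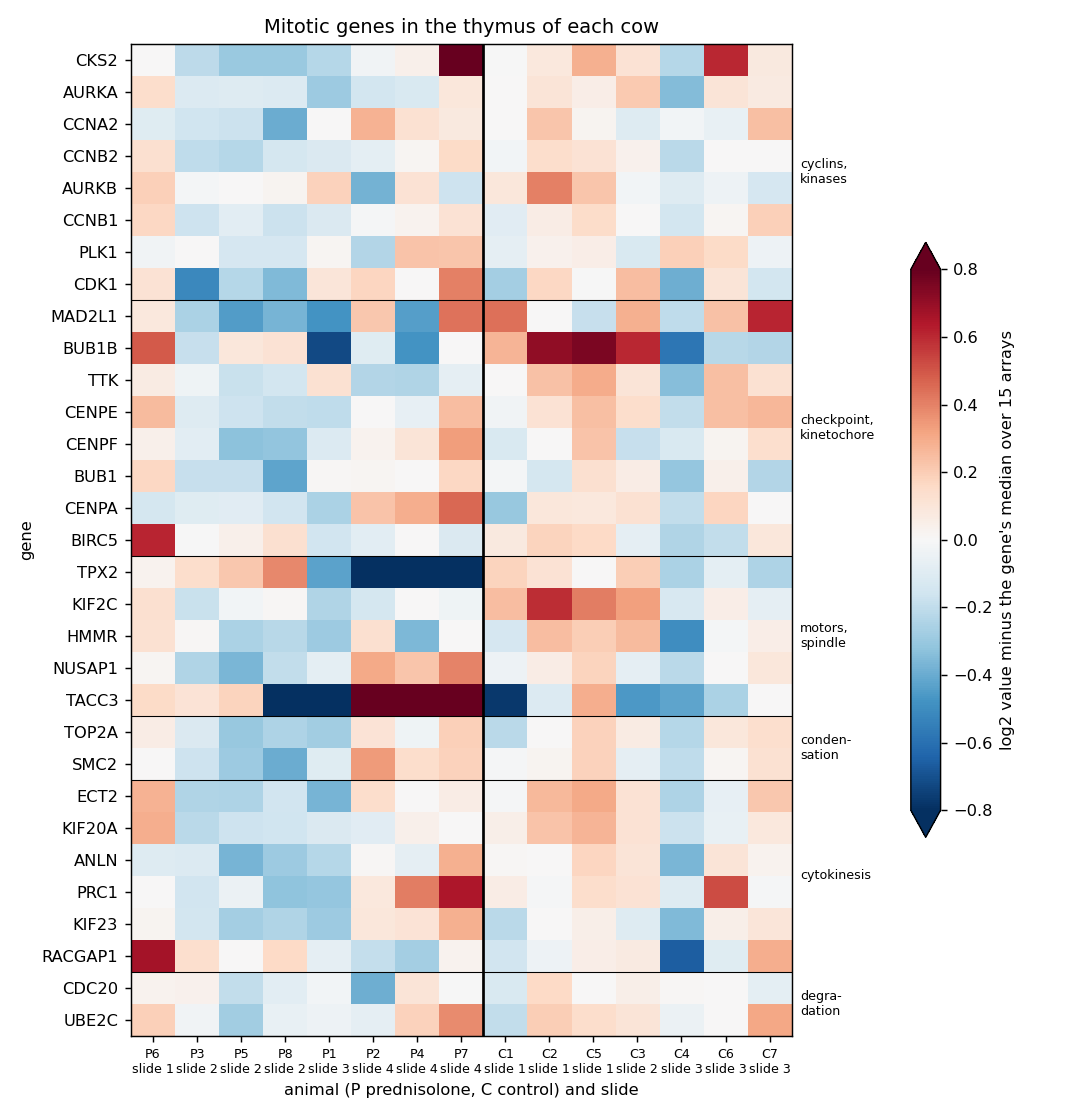
Log2 value of each of the 31 genes in each animal minus the gene's median over 15 arrays, with genes in rows by role, prednisolone animals (P) left and controls (C) right, each in slide order. Colours end at 0.8 in either direction. Prednisolone animals 1, 3, 5 and 8 and control 4 are blue in most genes, control 5 and prednisolone animal 6 are red in most, and TACC3 and TPX2 break with the other genes on slide 4.

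Counted by animal, the genes lay mostly high or mostly low in several animals of both groups. Prednisolone animals 1 to 8 had 6, 15, 5, 16, 4, 24, 22 and 6 of 31 genes above the gene's own median over 15 arrays. Controls 1 to 7 had 9, 22, 21, 2, 28, 18 and 19. Over all probes the share above the median ran from 39.4% to 58.4% in prednisolone animals and from 38.6% to 54.7% in controls. Both groups held animals near the bottom and animals near the top. The median deviation of the 31 genes ran from -0.18 to 0.17 in prednisolone animals, with a middle value of -0.059, and from -0.22 to 0.16 in controls, with a middle value of 0.076. Control 4 was the lowest control for 23 of 31 genes, or 74.2%, where it was the lowest for 20.9% of all probes. It was also the animal with the highest testis transcripts, and their part in its low mitotic values was not tested. Prednisolone animals 6 and 7 were the highest of their group for 11 and 12 genes, where they were so for 10.6% and 13.9% of all probes. Control 5 was the highest control for 11 genes, where it was so for 2734 of 16067 probes.

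**Figure D4:**
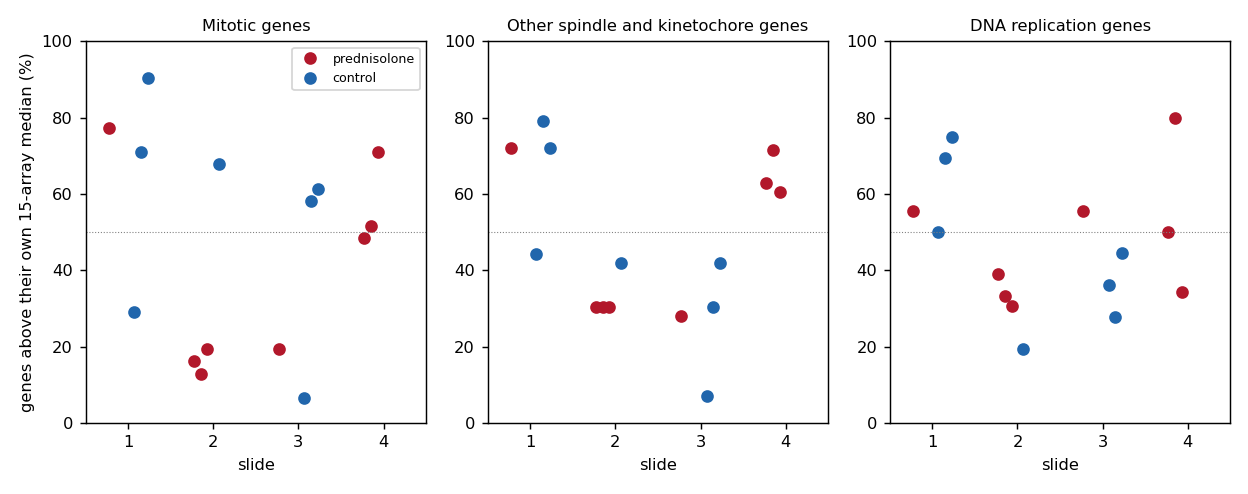
Percent of genes above their own median over 15 arrays in each animal, by slide, for the 31 mitotic genes, for 43 other spindle and kinetochore genes and for 36 DNA replication genes, with prednisolone in red left of control in blue. For the mitotic genes the 3 prednisolone animals of slide 2 lie at 19.4% or lower and the control of that slide at 67.7%.

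Slides were also compared with one another. With treatment in the model, 8 of 31 genes differed between slides, or 25.8%, where 30.6% of all probes did (limma F test, adjusted p under 0.05). These were TPX2, BUB1B, TACC3, NUSAP1, KIF2C, SMC2, CENPA and BIRC5. The share was close to that of all probes. Without the 6 animals with testis or liver transcripts 3 of 31 differed, BUB1B, TPX2 and TACC3, where 16.6% of all probes did.

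Slide 4 was compared with the other 5 prednisolone animals, all of which had received the drug. Of 31 genes 6 differed, or 19.4%, where 15.8% of all probes did (limma, adjusted p under 0.05). The direction was less even: 5 genes were higher on slide 4, or 16.1% against 3.41% of all probes, and 1 was lower, or 3.23% against 12.4%. At any size 24 of 31 were higher on slide 4, where 42.9% of all probes were, and the median difference was 0.18 against -0.063 for all probes. This direction was not particular to the 31 genes. Of 43 other spindle and kinetochore genes 32 were higher on slide 4 (median 0.13), as were 13 of 16 condensin and cohesin genes (0.29). Of 36 DNA replication genes 24 were higher (0.098), as were 11 of 14 cell cycle inhibitors (0.14). Transcription factors and partners of cell cycle genes were higher for 12 of 20 (0.12). Genes of the anaphase-promoting complex and separase were higher for 10 of 17 (0.0080). Thymocyte markers were higher for 8 of 13 (0.097) and markers of thymic epithelium for 6 of 9 (0.088). Only 1 of 10 macrophage (-0.55), 0 of 8 adipocyte (-0.75), 1 of 10 B cell (-0.31) and 1 of 6 erythroid markers (-0.42) were higher.

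TACC3 averaged -0.25 on slide 4 and -2.12 in the other prednisolone animals, a difference of 1.87 ± 0.34 (limma adjusted p = 0.00622). TPX2 averaged -5.30 on slide 4 and -4.14 in the others, a difference of -1.16 ± 0.19 (limma adjusted p = 0.00352). Both calls were made in 8 of 8 runs that each left out 1 prednisolone animal. CENPA was higher on slide 4 by 0.47 (limma adjusted p = 0.0120), and that call was made in 7 of 8 runs. NUSAP1 was higher by 0.48 (adjusted p = 0.0225, 4 of 8 runs), PRC1 by 0.55 (0.0381, 2 of 8 runs) and SMC2 by 0.41 (0.0475, 2 of 8 runs), all with limma. Without the animals with testis or liver transcripts, which leaves 2 against 3 animals, 0 of 31 genes passed where 6.13% of all probes did, and 6 had an unadjusted p under 0.05, or 19.4% against 20.5% of all probes. At any size 22 of 31 were higher on slide 4, where 44.0% of all probes were. TACC3 then had 1.70 ± 0.39 (limma adjusted p = 0.0715) and TPX2 -0.93 ± 0.23 (limma adjusted p = 0.0926).

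Among controls, slide 3 was compared with slide 1, free of the drug. BUB1B had a difference of -0.92, lower on slide 3 (limma adjusted p = 0.0363), as 1 of 31 genes or 3.23%, where 6.15% of all probes differed. At any size 24 of 31 were lower on slide 3, where 56.6% of all probes were. That call was lost in each of 6 runs that left out 1 control, with limma adjusted p from 0.0536 to 0.131 and a difference from -1.08 to -0.81. Controls 1, 4 and 6, with testis transcripts, were among the 6 animals of this comparison. Without them 0 of 31 genes and 0% of all probes passed, from 1 against 2 animals, where limma takes the lone animal to vary like the others, and 3 of 31 had an unadjusted p under 0.05, or 9.68% against 19.5% of all probes. The BUB1B difference was then -0.96 ± 0.16 (limma adjusted p = 0.163), as large as with all 6 animals.

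Second probes did not always follow the brighter one. The second BIRC5 probe lay between -0.90 and -0.55 in the 3 slide 4 animals and at -1.36 or lower in all 12 others. On slide 4 it was higher than in the other prednisolone animals by 1.02 ± 0.16 (limma adjusted p = 0.00328), while the brighter probe had -0.19 ± 0.17 (limma adjusted p = 0.461). Its difference between prednisolone and control was 0.44 ± 0.21 with all arrays (limma adjusted p = 0.701) and -0.0051 ± 0.13 with slide as a block. The second probes of PRC1 and UBE2C gave -0.051 ± 0.26 and 0.021 ± 0.13, but lay near the background, at mean values of -5.48 and -5.61. Each was above it on 11 of 15 arrays, for UBE2C on 7 of 8 prednisolone and 4 of 7 control arrays. The UBE2C probe had a larger SD between spots, 0.38, than between animals of a group, 0.25.

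Probes matched by gene number, older symbol or description stand outside the rule. They gave differences of -0.043 ± 0.14 for NDC80 and -0.077 ± 0.29 for NUF2, which join in the complex that grips microtubules. NCAPG, a condensin subunit listed under an older symbol, gave 0.12 ± 0.11. A probe that its description alone ties to MKI67, the proliferation marker Ki-67, gave -0.10 ± 0.23 and was above background on 9 of 15 arrays. None of the 4 passed between prednisolone and control, with limma adjusted p from 0.851 to 0.973. A second TTK probe gave -0.081 ± 0.22, and probes tied by description to ECT2, NUSAP1 and CDC20 gave -0.47 ± 0.36, -0.12 ± 0.13 and 0.10 ± 0.16. Some of these probes differed between slides. NDC80 was higher on slide 4 than in the other prednisolone animals by 0.56 (limma adjusted p = 0.0370), and had -0.25 ± 0.11 without slide 4. In controls, slide 3 minus slide 1 was -1.31 for NUF2, -0.97 for the second TTK probe and -1.44 for the ECT2 probe (limma adjusted p = 0.0238, 0.0495 and 0.0241).

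Of the other genes of chromosome segregation and the cell cycle listed next, 0 passed in any list (limma, over all probes). Of 43 other spindle and kinetochore genes 18 were higher and 25 lower, with a median difference of -0.023. In the slide-block fit 26 of 43 were lower (median -0.063), and without slide 4 it was 31 of 43 (median -0.091). Their smallest p belonged to ZWILCH, a kinetochore protein that recruits checkpoint proteins (0.34 ± 0.18), and to CENPH, of the inner kinetochore (0.16 ± 0.087). Of 17 genes of the anaphase-promoting complex and separase 7 were higher and 10 lower, with a median of -0.0074, led by ANAPC13, a small subunit (-0.19 ± 0.071), and UBE2S, which extends ubiquitin chains (-0.21 ± 0.086). Of 16 condensin and cohesin genes 10 were higher and 6 lower, with a median of 0.038, led by the condensin subunits NCAPH (0.32 ± 0.11) and NCAPG2 (0.20 ± 0.096). The direction of the list turned when slide was allowed for: 9 of 16 were lower in the slide-block fit (median -0.053) and 10 of 16 without slide 4 (median -0.078). NCAPH stayed above 0, with 0.46 ± 0.11 in the slide-block fit and 0.34 ± 0.12 without slide 4. NCAPG2 had 0.063 ± 0.095 and 0.075 ± 0.086.

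DNA replication genes had 15 higher and 21 lower of 36, with a median of -0.020. In the slide-block fit 18 of 36 were lower (median -0.0017), and without slide 4 it was 23 of 36 (median -0.064). POLA2, a subunit of DNA polymerase alpha, led this list by p without passing (limma adjusted p = 0.378). It was above background in 6 of 8 prednisolone animals and in 1 of 7 controls, and so met the filter through the prednisolone animals. No difference is given, since most controls lay near the background. GINS1, of the replicative helicase, had 0.23 ± 0.10. Among 20 transcription factors and partners of cell cycle genes 11 were higher and 9 lower, with a median of 0.0048. They were led by TFDP1 (0.26 ± 0.13) and FOXM1, an activator of mitotic genes (0.18 ± 0.12). In the slide-block fit TFDP1 had 0.11 ± 0.11 and FOXM1 0.18 ± 0.14. Without slide 4 TFDP1 had 0.078 ± 0.11 and FOXM1 0.14 ± 0.12. Among 14 inhibitors of the cell cycle 10 were higher and 4 lower, with a median of 0.031. In the slide-block fit 6 of 14 were lower (median 0.012). Without slide 4 the direction turned, with 9 of 14 lower and a median of -0.023. BTG1, an antiproliferative gene, had -0.25 ± 0.098.

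Markers of the cell types that a thymus sample can hold also had 0 calls (limma). Of 13 thymocyte markers 11 were higher in prednisolone cows, with a median of 0.092, and of 9 markers of thymic epithelium 4 were higher, with a median of -0.011. The mean level of the thymocyte list per animal ran from 2.91 to 3.14 in prednisolone animals and from 2.77 to 3.02 in controls. Adipocyte markers were higher for 7 of 8 (median 0.28), and B cell markers for 8 of 10 (median 0.16). In the slide-block fit these medians were 0.83 and 0.24, and without slide 4 they were 0.61 and 0.19. The mean level of the adipocyte list ran from -2.67 to -0.13 in prednisolone animals and from -2.49 to -0.93 in controls. Prednisolone animal 1, the only prednisolone animal of slide 3, had a median deviation of 1.83 for this list. The other prednisolone animals had 0.65 or lower. Macrophage markers were lower for 10 of 10 (median -0.25) and erythroid markers for 6 of 6 (median -0.33). The erythroid direction turned in the slide-block fit, with 2 of 6 lower and a median of 0.074. It was kept without slide 4, with 6 of 6 lower and a median of -0.17. Macrophage markers were lower for 10 of 10 in the slide-block fit (median -0.15) and for 6 of 10 without slide 4 (median -0.053). The part of these cell types in the mitotic values was not tested. The markers with the smallest p were CD8A (0.23 ± 0.071) and LCK (0.22 ± 0.12) of thymocytes, and CLDN7 (-0.35 ± 0.15) and PRSS16 (-0.14 ± 0.076) of epithelium. Those of adipocytes were PNPLA2 (0.32 ± 0.12) and GPD1 (0.24 ± 0.094), and those of B cells S1PR2 (-0.49 ± 0.20) and BLNK (0.24 ± 0.10). Those of macrophages were HMOX1 (-0.43 ± 0.16) and SPIC (-0.59 ± 0.29), and those of erythroid cells EPB42 (-0.32 ± 0.14) and ALAS2 (-0.58 ± 0.34). EPB42 lay near the background, above it on 5 of 8 prednisolone and 5 of 7 control arrays. In the slide-block fit EPB42 had -0.19 ± 0.14 and ALAS2 0.15 ± 0.32. In the same fit HMOX1 had -0.35 ± 0.18 and SPIC -0.13 ± 0.27, and without slide 4 they had -0.27 ± 0.15 and -0.17 ± 0.18.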

How the data were processed

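Scanner files of 15 one-colour arrays were used. The deposited spot intensity is the processed signal of Feature Extraction 9.5.1.1, made with spatial and multiplicative detrending on and the separate background correction off, per the file headers. A second deposited source, the authors' value table, holds linear intensity, and its normalization is not given in the sources used here; the submitters' processing notes name R 2.11.1. Signals were taken to log2 and centred on each array's 75th percentile over 42990 bovine spots, outlier spots were left out, and the spots of a probe were averaged. Groups follow the treatment label, and replicate numbers follow sample order.

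Tests used limma 3.58.1 in R 4.3.3 on the 16069 probes above background on at least 7 of 15 arrays, with Benjamini-Hochberg adjustment, and were tested on simulated data. The number of arrays limits the precision. Lowest, median and highest animals are given for the 12 genes with the smallest p and the 4 with the largest spread, and the 2 genes with the smallest p of each other list are named, except 1 that is not reported here. The genes and lists were chosen with earlier results of these data known. No coordinates were used.

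Alternatives were quantile normalization, median centring, normexp (offset 50), the authors' table, no filter or a stricter one, keeping outlier spots, trend and robust, slide as a fixed or random block, slide 4 left out, array weights, probes averaged and each animal left out. Chosen after seeing the data were values within slides, probes outside the rule, slide tests with each animal left out, and leaving out animals whose mean over 7 testis or 5 liver genes lay over 2 (log2) above the median animal.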

Additional observations from a re-analysis of the deposited data

Results flagged for a closer look

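Of 62 sets of values (31 genes in 2 groups), 6 held an animal whose gap to the next was wide for the range of its group. The rule flags about 1 in 20 sets by chance when sets are independent. These sets come from the same animals, so that share gives no expectation for their count. Prednisolone animal 6 stood alone above its group for BIRC5 (0.18, next -0.31) and RACGAP1 (-3.71, next -4.22). Prednisolone animal 7 did so for CKS2 (3.67, next 2.69), and control 6 for PRC1 (3.54, next 3.16). Control 4 stood alone below its group for AURKA (0.15, next 0.49) and ANLN (-0.89, next -0.52). Controls 4 and 6 also carried testis transcripts, and their part in these values was not tested.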

How the results depend on the processing

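The count of genes changed by prednisolone was 0 under all 17 other settings, and 0 in each of 15 runs with a single animal left out. The median log2 difference ran from -0.14 to -0.029 over those settings and from -0.097 to -0.051 (21 to 28 of 31 lower) over those runs, and was -0.23 within slide 2. The -0.029 came with normexp, where the median of all probes was -0.21, so there the 31 genes lay above all probes. Of 403 values of the 13 genes given by animal, 399 kept their side of 0 and of the threshold. The exceptions were CKS2 with normexp (0.053), TACC3 in the slide-block fit (-0.076) and without slide 4 (-0.083), and TPX2 without slide 4 (0.083). The cause was not tested. Changing the filter, trend and robust, and averaging probes leave the estimates of these 13 genes as they are. Their side of 0 was therefore fixed in those settings, and only the adjusted p could change. Values within slides are not in the count, and some of the 13 genes changed side there. Genes that differed between slides numbered 14 with median centring, 1 with normexp and 3 without animals carrying testis or liver transcripts, and 6 to 9 with each animal left out. Genes that differed between slide 4 and the other prednisolone animals numbered 3 with quantile normalization, 12 with median centring, 3 with the authors' values and 0 without those animals, and 2 to 7 with each animal left out (2 without prednisolone animal 7, 3 without 5 or 8). The BUB1B call among controls was lost (0 calls) with quantile normalization, median centring, normexp, the authors' values, no filter on dim probes, without those animals and with each control left out (0 to 0). No paired analysis was possible because the replicate numbers follow sample order and pair no animals. Signal over background limits KIF11 most, and the slide 4 comparison rests on 3 arrays.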
